A study of Homo sapiens with 11 samples.

Results

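Interferon-stimulated genes and cytosolic RNA sensors were examined in 769-P, a human clear-cell renal carcinoma cell line, after siRNA transfection against AKR1A1, an aldo-keto reductase that reduces aldehydes with NADPH. The set was a list of 39 gene symbols, and each was found in both deposited tables, which hold 33080 genes. RNA sequencing was done on 11 libraries. The control group had a control siRNA and a genotype labelled wild-type (siSCR, n = 4). The other groups had a first (si1, n = 3) or a second siRNA (si2, n = 4) and a genotype labelled AKR1A1-/-, although the protocols describe transfection with siRNA and no edited clone. Cells of every group were grown in plates and transfected with RNAiMAX over 48 h (20 µM siRNA on the labels), and no group was left without siRNA. Nothing in the labels says whether the libraries of 1 group were separate cultures; the p-values therefore cover the spread of these libraries alone, which may be technical.

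Type I and type III interferons act through receptors whose Janus kinases phosphorylate STAT proteins, and a complex of STAT2 and IRF9 binds the interferon-stimulated response element (ISRE) in the promoters of many of these genes. RIG-I (DDX58) and MDA5 (IFIH1) bind double-stranded or uncapped RNA in the cytosol and signal through MAVS to induce interferon, while OAS enzymes and PKR (EIF2AK2) are activated by double-stranded RNA. In epithelial cells without interferon, part of this set is expressed at a low basal level.

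The ISRE was searched first, because it is the sequence that the set is known for. RefSeq promoters on GRCh38.p14, from 250 bases before to 50 bases after the start, were matched by gene identifier for 32 of the 39 genes. No entry was found for OAS2, OASL, IFIT2, MX2, USP18, IFITM2 and IRF7. The motif GAAANNGAAA, on either strand, was found in 20 of the 32 promoters (62.5%). Over all 27305 promoters of the same length it was found in 996 (3.65%), and among 8765 promoters of expressed genes in 226 (2.58%). It was found in 12 of 20 expressed members (60.0%) and in 8 of 12 members that were not expressed (66.7%). The motif TTCNNNGAA, the core of the gamma-activated site, which reads the same on both strands and can overlap an ISRE, was found in 9 of the 32 (28.1%) against 7.88% of all promoters. A match is a description of these windows and not a measured binding site.

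The 200 bases before the start are printed 5′ to 3′ for 5 expressed genes to which the results below return and for IFI44L, which has the motif and was not expressed; capitals mark the ISRE match. OAS3 lies on the plus strand (chr12:112938274-112938473), DDX60 on the minus strand (chr4:168318753-168318952), PARP14 on the plus strand (chr3:122680639-122680838), ISG15 on the plus strand (chr1:1013297-1013496), IFITM3 on the minus strand (chr11:320861-321060) and IFI44L on the plus strand (chr1:78620248-78620447). 
OAS3: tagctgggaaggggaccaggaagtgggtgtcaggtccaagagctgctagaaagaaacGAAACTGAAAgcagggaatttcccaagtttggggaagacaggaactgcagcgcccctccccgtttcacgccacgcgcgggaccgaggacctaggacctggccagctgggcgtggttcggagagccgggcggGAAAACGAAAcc
DDX60: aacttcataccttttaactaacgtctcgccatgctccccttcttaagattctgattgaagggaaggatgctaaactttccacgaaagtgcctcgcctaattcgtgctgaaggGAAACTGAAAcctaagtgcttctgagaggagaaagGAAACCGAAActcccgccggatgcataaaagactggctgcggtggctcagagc
PARP14: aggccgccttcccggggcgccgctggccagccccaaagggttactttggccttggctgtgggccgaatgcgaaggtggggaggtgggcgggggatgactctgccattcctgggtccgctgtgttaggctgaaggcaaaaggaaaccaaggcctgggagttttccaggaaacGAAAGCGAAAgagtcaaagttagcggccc
ISG15: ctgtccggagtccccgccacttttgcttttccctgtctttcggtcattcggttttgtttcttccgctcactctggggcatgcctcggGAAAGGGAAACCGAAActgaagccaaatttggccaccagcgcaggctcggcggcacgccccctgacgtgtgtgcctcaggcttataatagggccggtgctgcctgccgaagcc
IFITM3: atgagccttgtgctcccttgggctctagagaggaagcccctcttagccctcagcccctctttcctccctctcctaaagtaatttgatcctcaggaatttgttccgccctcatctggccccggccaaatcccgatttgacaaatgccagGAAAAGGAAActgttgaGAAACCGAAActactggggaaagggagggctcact
IFI44L: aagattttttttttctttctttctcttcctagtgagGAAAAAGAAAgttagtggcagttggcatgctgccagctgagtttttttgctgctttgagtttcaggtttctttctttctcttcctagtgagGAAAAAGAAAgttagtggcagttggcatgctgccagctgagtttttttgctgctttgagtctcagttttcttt
OAS3 carries 2 matches, beginning at -143 and -12 from the start, and DDX60 carries 2, at -88 and -53. PARP14 has 1 match at -29. In ISG15 the 2 matches overlap, at -113 and -107, and in IFITM3 they lie at -52 and -35.

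Depth was 2108546 to 5939514 reads on genes per library. AKR1A1 was lower with both siRNAs: its normalized count was 272 ± 82.3 (SD, n = 4) with siSCR, 50.1 ± 29.4 (n = 3) with si1 and 45.8 ± 10.2 (n = 4) with si2. Its log2 difference was -2.54 with si1 (limma adjusted p = 0.0357) and -2.53 with si2 (adjusted p = 0.00218), and every siRNA library against AKR1A1 lay below every control. The si1 call was lost without each of the libraries except siSCR 1 (adjusted p = 0.0659 to 0.126). Of 12 renal line markers, 9 were expressed, PAX8 among them (711 to 1149). CA9 (0), NDUFA4L2 (at most 0.878) and KRT19 (at most 2.63) were not expressed. Of 11 leukocyte markers only CD68 was expressed (33.1 to 112), with CD3E at 0; all 5 endothelial markers were at 0, and of 7 fibroblast markers only COL1A1 was expressed (12.3 to 58.4). Library siSCR 1 stood apart from its group: it had 12.1% mitochondrial reads against 3.46% to 4.46% in the other controls, and an S phase score of -0.499 against 0.776 to 0.807. Library si1 2 had reads on 11618 genes, against 13154 to 14355 in the other libraries. Results that turn on a library are given with and without it.

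Of the 39 genes, 24 were expressed, defined as a normalized count of at least 10 in at least 3 libraries, and 18 of them reached 10 in every library. Normalized counts are reads divided by the size factor of the library. Over all genes, 10760 of 33080 passed the same rule. Only 5 members had a mean above 100: IFITM3, EIF2AK2, SP100, PARP14 and IRF1. OASL, MX2 and IFITM1 had no reads in any library; 0 of 36266558 reads over the 11 libraries allows up to 3 reads, by counting error only. The other 12 genes that were not expressed had reads in some libraries, and none exceeded 8.40. These were OAS2, MX1, ISG20, IFI27, IFI44, IFI44L, IRF9, HERC5, HERC6, XAF1, RSAD2 and BST2. MX1, RSAD2, IFI27 and IFI44L, which are used as readouts of interferon exposure, were thus below the rule. Other interferon-stimulated members passed it, ISG15, IFIT1, IFIT3, IFI6 and OAS1 among them. In bulk RNA, fewer cells of a kind and less RNA per cell cannot be told apart.

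**Figure D1:**
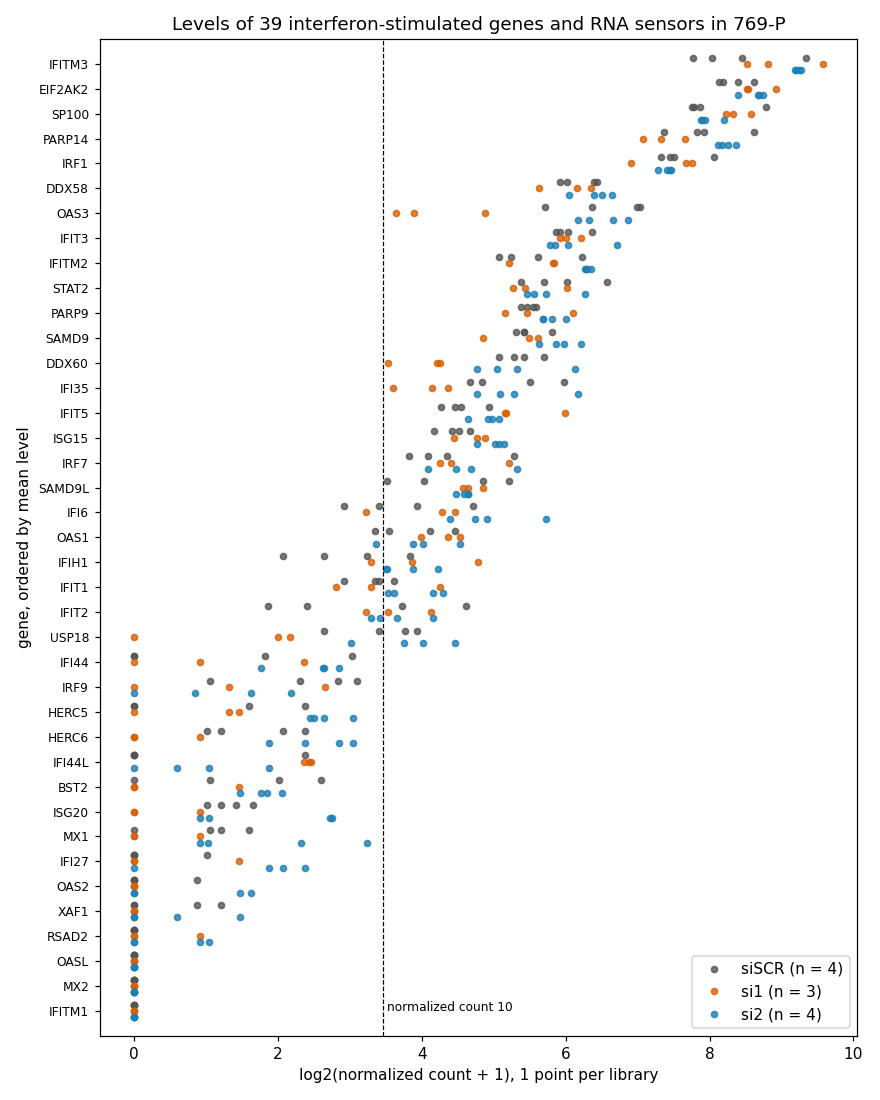
Levels of the 39 genes, ordered by mean level. The x axis gives log2(normalized count + 1) with 1 point per library, in grey for siSCR, orange for si1 and blue for si2, and the dashed line marks a normalized count of 10. The 24 expressed genes make up the upper part and OASL, MX2 and IFITM1 sit at 0.

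Levels of different genes were compared per kilobase of exon (GENCODE 29). IFITM3, which restricts virus entry at endosomal membranes, was highest with a normalized count of 368 per kb, at percentile 96.5 of the expressed genes. IFITM2, its close relative, followed at 38.3 per kb, and then EIF2AK2 (34.6 per kb), ISG15 (27.4 per kb), IFIT3 (25.4 per kb) and IFI6 (24.2 per kb), which lay between percentiles 60.3 and 71.2. The lowest expressed members were IFIH1 at 2.33 per kb, IFIT1 at 2.50, IFIT2 at 2.77 and OAS1 at 3.20 per kb. AKR1A1 itself was at 41.4 per kb over all libraries.

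The first question was which members differed between each siRNA and the control, and the second which differed between the siRNAs. A gene was called at a limma adjusted p under 0.05 over all genes tested. Both siRNA comparisons use the same 4 controls, so their results are not independent of each other. Of 22 tested members, 2 (OAS3 and DDX60) were lower with si1 than with siSCR, where 1.72% of all 10517 tested genes were called and 0.932% were called lower. With si2, 0 of 24 tested members passed limma's test, where 3.12% of genes were called, and both limma-trend and voom also called 0. For si2, 7 members had an unadjusted p under 0.05, where 19.6% of genes did. IFIT1 and IFIH1 are among the 7 and passed the filter on low counts mainly through the si2 libraries, which favours a higher value there. IFIT1 was at 10.5 to 18.7 with si2 and 6.54 to 11.2 with siSCR, and IFIH1 at 10.4 to 17.7 and 3.20 to 13.2. Between the siRNAs 3 of 24 members were called, OAS3, PARP14 and USP18, all higher with si2. There, 6.74% of genes were called and 3.71% were called higher. USP18 entered that test through the si2 libraries alone, so its direction was fixed by the filter on low counts. At an unadjusted p under 0.05 the counts were 4 of 22 members for si1 (23.9% of genes) and 8 of 24 between the siRNAs (25.4% of genes).

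The OAS family makes 2-5A, a second messenger of the antiviral response. OAS3, which prefers long double-stranded RNA, had the largest log2 difference between si1 and siSCR of the 22 tested members. Its normalized counts were 51.2, 126, 129.5 and 81.5 in the siSCR libraries, 11.4, 13.9 and 28.6 in the si1 libraries and 116, 100.3, 71.4 and 79.3 in the si2 libraries. All 3 si1 libraries lay below all others, and the si2 values lay within the control range. OAS3 lies on chromosome 12 from 112938352 to 112973249 of GRCh38. The log2 difference was -2.38 (SE 0.42, adjusted p = 0.0419) for si1 against siSCR and 2.37 (SE 0.32, adjusted p = 0.00959) for si2 against si1. For si2 against siSCR it was -0.01 (95% interval -0.68 to 0.65, adjusted p = 0.986), and 0.036 after upper-quartile scaling. The difference between the siRNAs passed the test when each library was left out in turn (adjusted p = 0.00985 to 0.0367). The difference from the control passed only without siSCR 1 (-2.66, adjusted p = 0.0124) and was lost without any of the other 6 libraries (adjusted p = 0.0935 to 0.135). The authors' deposited table gives OAS3 a log2 fold change of -1.95 with adjusted p = 8.26e-06 for si1.

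OAS1 was expressed at a low level, at 9.23 to 22.2 over the libraries, with a log2 difference of 0.43 for si1 (adjusted p = 0.408) and 0.08 for si2 (adjusted p = 0.914). Its promoter held no ISRE match and 1 TTCNNNGAA match. OAS2, at 0 in 8 libraries and at most 2.07, and OASL were not tested.

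Among the RNA sensors, DDX60, a helicase linked to RIG-I signalling, moved with si1. Its normalized counts were 32.7, 41.7, 37.9 and 50.9 with siSCR, 17.6, 18.0 and 10.5 with si1, and 38.9, 69.0, 26.3 and 32.1 with si2. The si1 libraries lay below every library of the other groups. DDX60 (chromosome 4, 168216293 to 168318807) was lower with si1 than with siSCR by a log2 difference of -1.37 (SE 0.25, adjusted p = 0.0460). The difference was -1.47 without siSCR 1 (adjusted p = 0.0190), and the call was lost without any other library (adjusted p = 0.0759 to 0.144). Between the siRNAs the value was 1.32 (SE 0.35, adjusted p = 0.0603), which missed the threshold, and for si2 against siSCR it was -0.05 (adjusted p = 0.945). In the authors' deposited table DDX60 has a log2 fold change of -1.13 with adjusted p = 0.0250 for si1.

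DDX58 (RIG-I) ranged from 48.6 to 99.1 over the 11 libraries. Its log2 difference was -0.15 for si1 (95% interval -0.71 to 0.42, adjusted p = 0.739) and 0.20 for si2 (95% interval -0.22 to 0.63, adjusted p = 0.610), and the groups overlapped. IFIH1 (MDA5) ranged from 3.20 to 26.4, with the highest value in si1 2; its differences were 1.03 for si1 (adjusted p = 0.241) and 0.84 for si2 (adjusted p = 0.221). EIF2AK2 (PKR), which phosphorylates eIF2α, ranged from 280.1 to 483, again highest in si1 2, and differed by 0.32 for si1 (adjusted p = 0.358) and 0.29 for si2 (adjusted p = 0.382).

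PARP14, a mono-ADP-ribosyltransferase of the macrodomain family, differed between the siRNAs. Its normalized counts were 390.4, 241, 225 and 164 with siSCR, 200.2, 133 and 159 with si1, and 331, 287, 304 and 276 with si2. Every si2 library lay above every si1 library. The controls ran from 164 to 390.4 and overlapped both groups, with si1 2 and si1 3 below the lowest control and siSCR 1 the highest of all 11. PARP14 (chromosome 3, 122680618 to 122730840) was higher with si2 than with si1 by 0.88 (SE 0.19, adjusted p = 0.0362). Leaving out si1 1 kept this call (adjusted p = 0.0372), and leaving out any other of the 7 libraries ended it (adjusted p = 0.0586 to 0.0990). Against siSCR it differed by -0.58 for si1 (adjusted p = 0.282) and 0.30 for si2 (adjusted p = 0.547).

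PARP9, a partner of the ubiquitin ligase DTX3L, ranged from 34.6 to 68.0. Its si2 values (50.3 to 63.4) lay above its control values (40.6 to 47.0), but the log2 difference of 0.30 did not pass the test (adjusted p = 0.302). SP100, a component of PML nuclear bodies, was at 439.9 in siSCR 1 and at 215 to 232 in the other controls. It was at 381, 299.7 and 320.1 with si1 and at 293, 243, 234 and 237 with si2. All si1 values lay above the si2 values, with a log2 difference of -0.40 for si2 against si1 (adjusted p = 0.205).

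In the ISG15 system, in which ISG15 is joined to proteins and USP18 removes it and damps interferon receptor signalling, the conjugating ligase HERC5 was not expressed (0 to 7.22), and HERC6 neither. USP18 (chromosome 22, 18149899 to 18177397) rested on few reads: 15, 9, 4 and 14 with siSCR, 4, 0 and 2 with si1, and 8, 19, 20 and 24 with si2. That is 6 reads in 3 si1 libraries against 71 in 4 si2 libraries, and no si1 value reached the lowest si2 value. Normalized counts were 2.17 ± 1.90 (n = 3) with si1, 10.4 ± 3.96 (n = 4) with siSCR and 13.9 ± 5.80 (n = 4) with si2. The log2 difference between the siRNAs was 2.42 (SE 0.55, adjusted p = 0.0402); it was 2.82 with a pseudocount of 0.5 (adjusted p = 0.0595) and 1.39 with a pseudocount of 5 (adjusted p = 0.0209), so its size depends on the value added to low counts. The call was lost without si1 1, si1 3 or si2 1 (adjusted p = 0.0511 to 0.0667), kept without si1 2 (adjusted p = 0.0330), and could not be tested without the other si2 libraries, where too few libraries reached the minimum. Of the 50-base stretches of its exons 23.4% also occur elsewhere, 23.0% in USP41, which was listed at 0. USP18 entered the test between the siRNAs through the si2 libraries alone, since 3 of them and no si1 library reached 10, and a gene that enters so had to be higher there. In si1 against siSCR, USP18 did not pass the filter on low counts.

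ISG15 was at 21.8, 20.3, 17.0 and 24.4 with siSCR, at 26.3, 20.8 and 28.6 with si1, and at 32.7, 31.3, 26.3 and 34.2 with si2. All si2 libraries lay above all controls. The log2 difference was 0.56 for si2 (SE 0.17, adjusted p = 0.102) and 0.26 for si1 (adjusted p = 0.451), and neither passed the test.

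**Figure D2:**
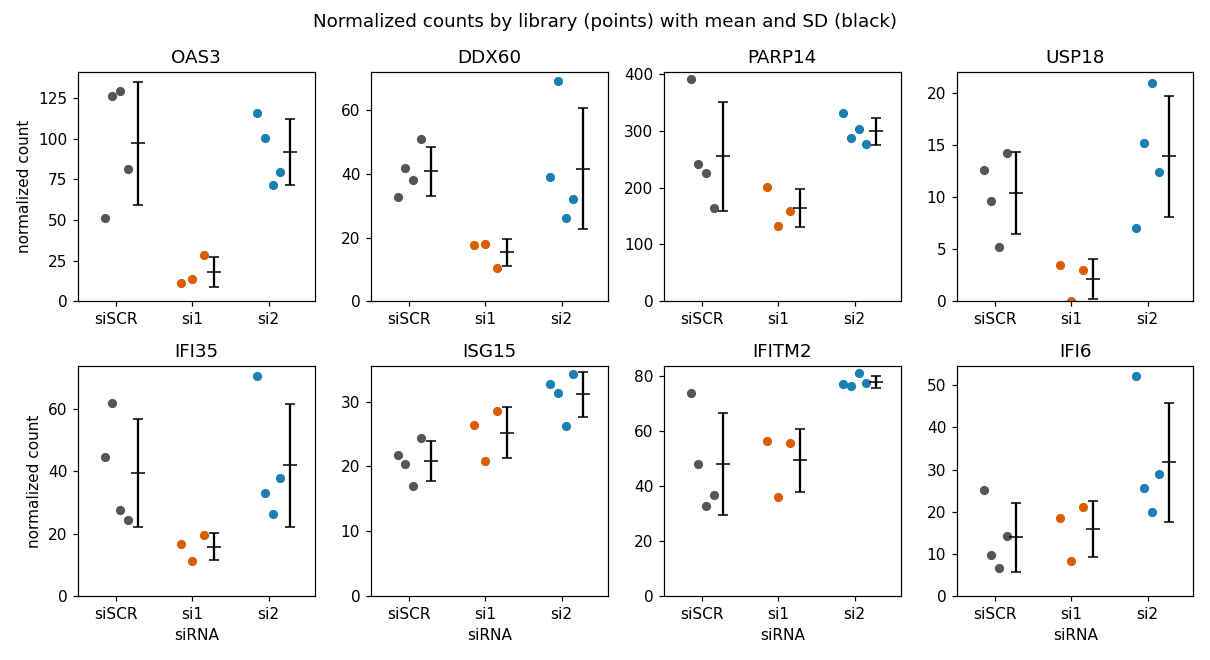
Normalized counts of 8 members in each library (points), with the mean and SD of each group in black; every y axis starts at 0. The si1 libraries lie lowest for OAS3, DDX60, USP18 and IFI35, and the si2 libraries of ISG15 lie between 26.3 and 34.2, above every control.

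Of the IFITM membrane proteins, IFITM2 and IFITM3 were expressed and IFITM1 had no reads. IFITM2 was at 73.9, 48.1, 32.7 and 36.7 with siSCR, at 56.2, 36.1 and 55.6 with si1, and at 76.9, 76.2, 80.9 and 77.2 with si2. Its si2 libraries lay above all others, and siSCR 1 came next. IFITM3 was at 649.8, 261, 217 and 349 with siSCR, at 761, 366 and 451 with si1, and at 617, 588, 583 and 607 with si2. Here siSCR 1 and si1 1, the libraries with the largest mitochondrial shares (12.1% and 11.1%), lay above all si2 libraries. For si2 against siSCR, IFITM2 differed by 0.76 (SE 0.24, adjusted p = 0.117) and IFITM3 by 0.83 (SE 0.30, adjusted p = 0.164). Without siSCR 1 they differed by 0.99 (adjusted p = 0.00589) and 1.14 (adjusted p = 0.00505), and both then passed the test. In that fit 3 of 24 members and 1496 of 10381 genes passed. Part of the IFITM2 exons (22.7%) overlaps IFITM1 and part of the IFITM3 exons (21.3%) overlaps AC136475.5 on the opposite strand, and how reads in such stretches were assigned was not given in the sources used here.

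IFI6, a small mitochondrial and endoplasmic reticulum protein with antiviral and anti-apoptotic activity, was at 25.2, 9.61, 6.54 and 14.3 with siSCR, at 18.4, 8.33 and 21.0 with si1, and at 52.2, 25.7, 20.0 and 29 with si2. The control siSCR 1 overlapped the si2 range and the other controls did not. The log2 difference for si2 was 1.20 (SE 0.39, adjusted p = 0.132). Without siSCR 1 it was 1.52 (adjusted p = 0.0195), in a fit where 1496 of 10381 genes passed the test. IFI35, a partner of NMI, was at 44.5, 62.0, 27.5 and 24.4 with siSCR, at 16.7, 11.1 and 19.5 with si1, and at 70.8, 32.9, 26.3 and 37.8 with si2. All si1 values lay below the rest, but the differences of -1.21 for si1 against siSCR (SE 0.36, adjusted p = 0.110) and 1.29 for si2 against si1 (SE 0.35, adjusted p = 0.0660) did not pass the test. IFI44, IFI44L, IFI27 and XAF1 were not expressed.

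The IFIT proteins bind viral RNA ends. IFIT3 was the highest of them per kilobase and ranged from 53.8 to 104, with differences of -0.00108 for si1 (adjusted p = 0.998) and 0.05 for si2 (adjusted p = 0.937). IFIT5 was at 21.0, 18.2, 22.2 and 29.5 with siSCR, at 35.1, 62.4 and 34.6 with si1, and at 29.2, 24.1, 30.5 and 32.7 with si2. All si1 values lay above both other groups, with a log2 difference of 0.89 from siSCR (SE 0.27, adjusted p = 0.115). IFIT1 (6.01 to 18.7) and IFIT2 (2.62 to 23.5) lay near the limit for expression; IFIT1 did not pass the filter in si1 against siSCR.

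Of the transcription factors, IRF1, which also drives genes without interferon, ranged from 119 to 265, STAT2 from 37.6 to 94.0 and IRF7 from 13.1 to 38.9. In IRF1, STAT2 and IRF7, siSCR 1 was the highest control, and none of their differences passed the test (adjusted p = 0.531 to 0.978). IRF9, the DNA-binding partner of STAT2, had 35 reads over all libraries and a normalized count of 0 to 7.56. Of its exons 48.4% overlap AL136295.5, which was itself at 0 to 6.94. SAMD9 ranged from 27.8 to 73.5 and differed by 0.61 between the siRNAs (adjusted p = 0.167), and SAMD9L ranged from 10.5 to 36.1, with differences of 0.29 for si1 (adjusted p = 0.683) and 0.19 for si2 (adjusted p = 0.806).

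**Figure D3:**
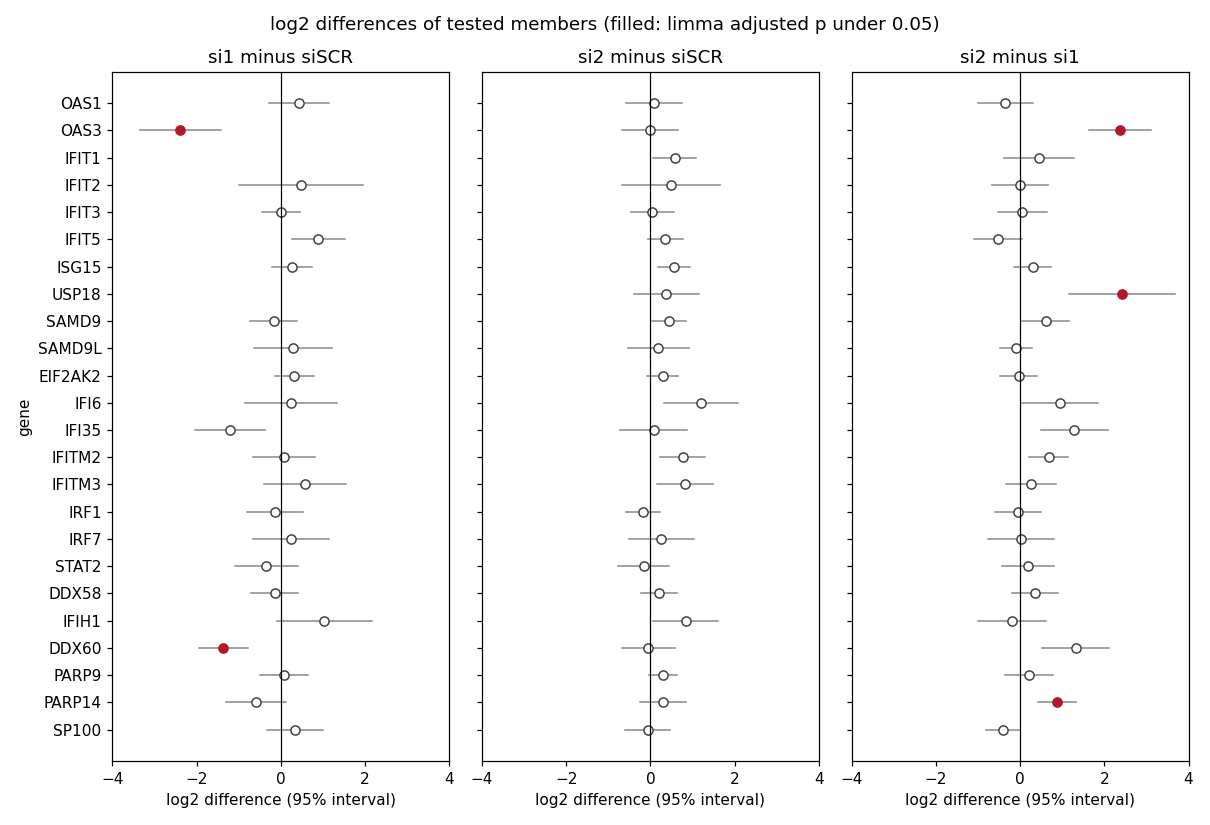
Log2 differences of the tested members in the 3 comparisons, with 95% intervals from limma; filled points passed an adjusted p under 0.05. OAS3 (-2.38) and DDX60 (-1.37) are filled on the left, none in the middle, and OAS3 (2.37), USP18 (2.42) and PARP14 (0.88) on the right. USP18 entered the test on the right through the si2 libraries alone.

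As a set, the tested members had a median log2 difference of 0.16 for si1 against siSCR, where the median of all tested genes was -0.03. Of these members 13 of 22 were positive (47.9% of all genes). For si2 against siSCR the median was 0.29 against -0.01, and 19 of 24 were positive (49.1% of all genes). IFIT1 and IFIH1, which passed the filter on low counts mainly through the si2 libraries, are among the 19. Between the siRNAs the median was 0.24 against 0.03, and 17 of 24 were positive (52.7% of all genes). The 17 include USP18, whose direction was fixed by the filter, and IFIT1, which also passed it mainly through si2. With si1, the groups did not overlap for 4 members (21.7% of all genes), 1 above the controls and 3 below. With si2 this held for 3 members, all above (12.6% of all genes), and between the siRNAs for 9 members, 7 of them higher with si2 (25.0% of all genes). USP18 is among these 7. Among the expressed members, the group means of OAS3, DDX60, IFI35, PARP14, USP18, STAT2, DDX58, SAMD9 and IFIT3 were lowest with si1. Those of IFIT5, SP100, OAS1, IFIT2, IFIH1, EIF2AK2 and SAMD9L were highest with si1.

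Over the 11 libraries, the Pearson correlation of log2 levels was 0.775 between OAS3 and DDX60, 0.698 between OAS3 and USP18 and 0.546 between OAS3 and PARP14. It was 0.814 between the neighbours IFITM2 and IFITM3, and 0.112 between PARP9 and PARP14. The median over pairs of expressed members was 0.143, and -0.000599 over pairs of every 5th expressed gene. OAS3, DDX60, USP18 and PARP14 are the members called in these libraries, so their correlations partly restate those group differences. These values describe the same 11 libraries, whose groups, depths and size factors all genes share.

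**Figure D4:**
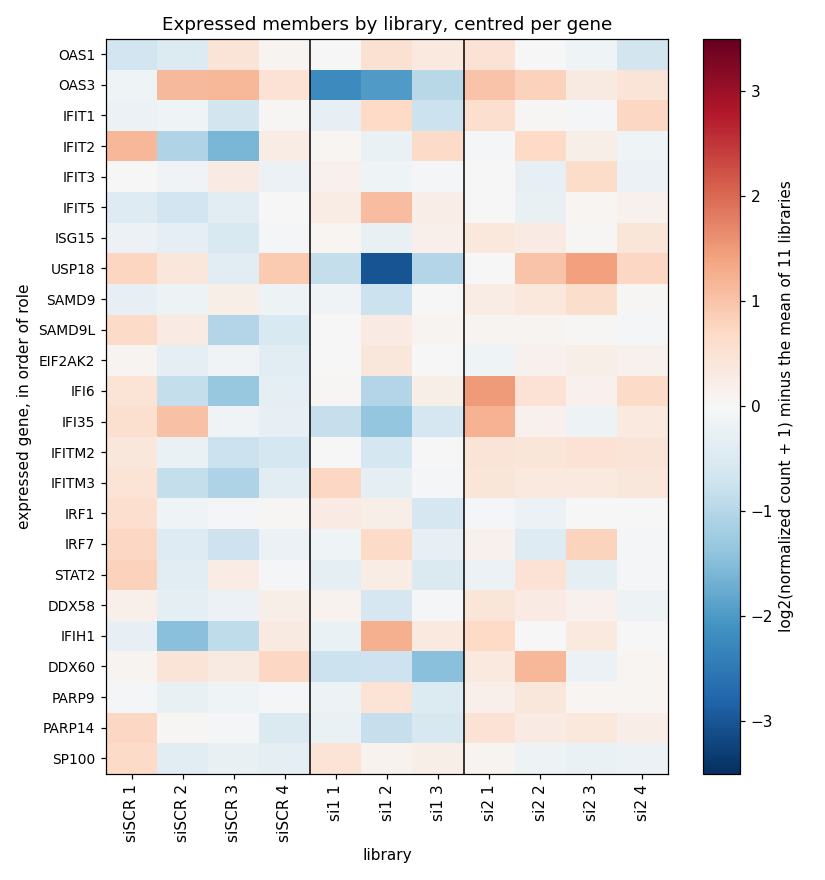
Expressed members in each library, as log2(normalized count + 1) minus the mean of the gene over 11 libraries, with genes in order of role and lines between siSCR, si1 and si2. OAS3, USP18, IFI35 and DDX60 are low in the si1 columns, and siSCR 1 is the highest control in 12 of 24 genes.

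Measures of the libraries also differed between and within the groups, and whether they account for these values was not tested. Library siSCR 1 was the highest control in 12 of 24 expressed members (50%), against 36.1% of all expressed genes, and the lowest in 4 (16.7%), against 35.5%. The si1 libraries had 6.57% to 11.1% mitochondrial reads and the si2 libraries 4.59% to 5.12%. The S phase score was -1.22 to -0.537 with si1 and -0.00530 to 0.166 with si2, and the mitosis score -1.80 to -0.318 and -0.00585 to 0.0728. COL1A1 was higher with si2 than with si1 (1.38, adjusted p = 0.0429), while the defining fibroblast genes COL1A2 and LUM were at 0. With the mitochondrial share as a covariate, OAS3 kept its call in si1 against siSCR (-2.06, adjusted p = 0.0415) and DDX60 missed the threshold at a similar difference (-1.30, adjusted p = 0.0612). Between the siRNAs, whose mitochondrial shares did not overlap, this term could not be told apart from the siRNA. With it the differences there were 2.00 for OAS3 (SE 0.57, adjusted p = 0.0917), 1.32 for PARP14 (SE 0.27, adjusted p = 0.0588) and 3.73 for USP18 (SE 0.83, adjusted p = 0.0652), and none passed. For si2 against siSCR, IFI6, IFITM2, IFITM3 and ISG15 passed the test, which is 4 of 24 members. In the same fit 1343 of 10249 genes passed. The part of cell cycle differences in these results was not tested.

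The signalling genes around the set were measured in the same fits. No reads were counted for IFNA1, IFNA2, IFNB1, IFNG, IFNK, IFNW1 or IFNL1 to IFNL3 in any library. The receptor chains IFNAR1 (88.8 to 153) and IFNAR2 (132 to 188) were expressed, while IFNLR1, a chain of the type III receptor, had no reads. Of 26 ligands, receptors and JAK-STAT genes 14 were expressed. For si1 against siSCR, limma called 0 of the 14, and limma-trend and voom called 0. Of the 14, 1 had an unadjusted p under 0.05, where 23.9% of genes did.

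Of 29 sensing and induction genes 19 were expressed, and all 19 were tested in each comparison. PRKRA, an activator of PKR, was higher with si2 than with siSCR by 0.65 (SE 0.14, adjusted p = 0.0395). It alone of the 19 was called by limma, where 3.12% of genes were called. That call was lost without any library other than siSCR 1 (adjusted p = 0.0766 to 0.133). For si2 against siSCR voom and limma-trend called 2 of the 19 each, with 463 and 482 of 10249 genes called. In si1 against siSCR limma called 0 of the 19, and voom and limma-trend called 0. At an unadjusted p under 0.05 there were 3 of the 19, against 23.9% of genes. Between the siRNAs limma called 0, and voom and limma-trend called 3 each. There, 5 of the 19 had an unadjusted p under 0.05, against 25.4% of genes. The highest levels were those of DDX3X (487 to 672) and MAVS (369 to 634), and neither passed the test. MB21D1, which encodes cGAS, was at 34.1 ± 8.67 (n = 4) with siSCR, 11.9 ± 12.4 (n = 3) with si1 and 41.0 ± 14.5 (n = 4) with si2, with a difference of 2.25 between the siRNAs that missed the threshold (adjusted p = 0.0953).

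Of 61 further interferon-stimulated genes 42 were expressed. For si1 against siSCR limma called 0 of 41 tested, voom called 1 and limma-trend 2. Of these 41, 11 had an unadjusted p under 0.05, where 23.9% of genes did. For si2 against siSCR 1 of 40 was called by limma, where 3.12% of genes were called. There voom and limma-trend called 3 each, with 463 and 482 of 10249 genes called. Between the siRNAs 4 of 41 were called by limma, where 6.74% of genes were called. In that comparison voom called 7 and limma-trend 6, with 1172 and 1064 of 10448 genes called. HLA-C, a class I antigen-presenting molecule, was at 764 ± 188 (n = 4) with siSCR, 1053 ± 27.0 (n = 3) with si1 and 1696 ± 43.2 (n = 4) with si2; it was higher with si2 than with siSCR by 1.18 (SE 0.18, adjusted p = 0.0116) and than with si1 by 0.69 (SE 0.15, adjusted p = 0.0372). HLA-E was higher with si2 than with si1 by 1.55 (SE 0.20, adjusted p = 0.00949), APOL6 by 1.25 (SE 0.22, adjusted p = 0.0206) and WARS, a tryptophanyl-tRNA synthetase, by 0.77 (SE 0.18, adjusted p = 0.0440). HLA genes have near-identical copies among which reads can be split, so their values are uncertain. Leaving out single libraries ended the WARS and HLA-C calls between the siRNAs in every case (adjusted p = 0.0653 to 0.125 and 0.0509 to 0.123) and that of APOL6 without si2 1, si2 2 or si2 4 (adjusted p = 0.0562 to 0.0690). The HLA-E call and the HLA-C call against siSCR held each time. Without siSCR 1, HLA-C also passed the test for si1 against siSCR (0.65, adjusted p = 0.0475), where the difference with all libraries was 0.49 (adjusted p = 0.22). In the fit without siSCR 1, 1399 of 10340 genes passed.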

How the data were processed

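Gene-level RNA sequencing values of 11 libraries of 769-P cells were analysed (4 siSCR, 3 si1, 4 si2). Per the submitters' processing notes, reads were handled with cutadapt, FastQC, STAR, HTSeq and DESeq2 on GRCh38; versions, strandedness and annotation are not given in the sources used here. Each library's values were deposited by the authors as log2 values; undone, these are relative log expression (RLE) normalized counts plus 1. All values came within 0.01 reads of whole multiples of 1 step (100%), so reads and depth were recovered. Per the file headers, the authors' tables also hold a mean normalized signal and DESeq2 fold changes with p-values, cited in the text as the authors' deposited table.

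The deposited values are logarithms. Differences of log2(normalized count + 1) were fitted with limma 3.58.1 (R 4.3.3), two-sided, with group as the only term, on the libraries of each comparison. The planned count test was set for deposited raw counts and was not run on the recovered reads, to which only voom was applied. Genes needed a normalized count of 10 or more in a number of libraries equal to the smaller group, and Benjamini-Hochberg adjustment ran over all genes tested. Errors are limma standard errors or SDs over libraries, and intervals are 95% intervals. The test was tested on simulated data.

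The members and lists were chosen with earlier results of these data known. Every member could be named; values in every library were given for members called in any comparison and for the 3 of smallest p in each, with IFIT5, IFITM3 and SP100 added after their values were seen. From other lists, called genes and those of highest level were named, with MB21D1 added after its values were seen, and some results are not reported here. PSMB9, HLA-B and HLA-F are not analysed here. List scores are mean log2 levels centred per gene. Positions and exon lengths came from GENCODE 29, matched by identifier for all 39 members. The alternatives were no filter, a minimum of 50, pseudocounts of 0.5 and 5, limma-trend, voom on recovered reads, upper-quartile scaling, all 11 libraries in 1 fit, the mitochondrial share or the replicate number as a term, and leaving out each library.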

Additional observations from a re-analysis of the deposited data

Results flagged for a closer look

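SP100 was at a normalized count of 440 in siSCR 1, far above the other controls (215 to 232), and at 293 in si2 1, above the other si2 libraries (234 to 243). These were 2 of 48 sets of 4 libraries examined for a single distant library, and chance marks about 1 in 20 of such sets. OAS3 (log2 difference 2.37), PARP14 (0.878) and USP18 (2.42) differed between the siRNAs by a direct test of si2 against si1, with AKR1A1 at 45.8 ± 10.2 (n = 4) and 50.1 ± 29.4 (n = 3). USP18 passed the filter on low counts through the si2 libraries alone, so the direction of its difference was fixed by that filter.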

How the results depend on the processing

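Of the members, 2 were called for si1 and 0 for si2, each against siSCR, and 3 between the siRNAs. For si1 the count was 0 with no filter, 1 with a minimum of 50, 1 with voom and 1 with the mitochondrial share, and 0 to 2 without single libraries. For si2 it was 4 with the mitochondrial share and 0 to 3 without single libraries, and between the siRNAs it was 0 with the mitochondrial share and 1 to 2 without single libraries. The mitochondrial share did not overlap between si1 and si2, so in that comparison it could not be told apart from the siRNA. With the replicate block the members called were 0, 1 (IFI6) and 0, and the genes called 0, 175 and 6. Deviations of same-numbered libraries from their group means correlated at 0.394 for si1 1 with siSCR 1, over 10760 genes. The other same-numbered pairs lay at -0.0317 to 0.164. Whether a replicate number marks a shared batch is not given in the labels and was not tested. Over all genes, 181 were called for si1; the count was 5 with no filter, 567 with a minimum of 50, 414 with a pseudocount of 5, 712 with limma-trend, 582 with voom (329 higher, 253 lower, against 83 and 98), 115 with upper-quartile scaling, 1141 with all 11 libraries in 1 fit, and 0 to 1399 without single libraries, the most without siSCR 1. For si2, 320 were called; the count was 108 with no filter, 482 with limma-trend, 1343 with the mitochondrial share and 88 to 1496 without single libraries. Between the siRNAs 704 were called; the count was 230 with no filter, 1064 with limma-trend, 1172 with voom, 167 with the mitochondrial share and 120 to 803 without single libraries. Upper-quartile scaling moved the median of all genes between the siRNAs from 0.03 to 0.16 and the calls from 388 higher and 316 lower to 431 and 158, where OAS3, PARP14 and USP18 stayed called. Differences near 0 changed sign. For si2 against siSCR, OAS3 was at 0.026 with voom, 0.036 with upper-quartile scaling and -0.29 to 0.16 without single libraries, above 0 without siSCR 2, siSCR 3, si2 3 or si2 4. DDX60 was at -0.32 to 0.13 without single libraries, above 0 without siSCR 4, si2 3 or si2 4. AKR1A1 between the siRNAs was at 0.01, and at 1.27 with the mitochondrial share (adjusted p = 0.137), -0.10 with voom and -0.43 to 0.45 without single libraries, below 0 without si1 2, si2 1 or si2 3. With no filter HERC6 was called between the siRNAs beside OAS3. The cause of these changes was not tested. Low counts limit USP18, IFIT1, IFIT2, IFIH1 and OAS1, at means of 9.45 to 15.8, and the 15 genes that were not expressed.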
